A study of Mus musculus with 26 samples.

Results

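The RNA-seq table of E14 mouse embryonic stem cells held 94 long noncoding RNA (lncRNA) genes among 2189 listed genes. They were chosen as every row whose Ensembl identifier carries, in the GENCODE M21 annotation, the gene type lincRNA (57 genes), antisense (22), processed_transcript (10), bidirectional_promoter_lncRNA (3) or sense_intronic (2), while no row had the type sense_overlapping. E14 is an established feeder-free line of mouse embryonic stem cells. In the mESC+ state the cells were kept in medium with leukemia inhibitory factor (LIF), and in the mESC- state LIF was removed and 1 µM retinoic acid (RA) was given for 4 h before harvest. LIF removal and RA therefore went together, and their effects cannot be told apart. Each state had 3 RNA-seq libraries of polyadenylated RNA and 1 ATAC-seq library, and the enhancer regions came from ChIP-seq with 1 library per mark and state.

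lncRNAs are transcripts that are not translated into known proteins. Some act on chromatin or transcription near the place where they are made, some carry small RNAs in their introns, and for many no function is known. Many are transcribed antisense to a coding gene or away from its promoter, and many are found at low levels and in few cell types, among them embryonic stem cells. RA binds receptors that sit on DNA at response elements and switches on the Hox genes and enzymes of RA turnover.

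The table gives for each gene a mean normalized count over the 6 libraries (here its level), a log2 fold change and its standard error (SE), and an adjusted p of DESeq2, and its rows end at an adjusted p of 0.1. A gene thus had to differ between the states to be listed, and the members' counts describe listed genes and not lncRNA genes in general. The 94 genes were 0.926% of the 10150 lncRNA genes of these types in the annotation, against 9.04% for protein-coding genes. Values per library were not used here, so spread is given as the SE. The direction of the fold change was read from RA targets. Of 10 such genes 9 were listed, all with positive values, and 8 passed an adjusted p of 0.05 (DESeq2), so positive values are higher in mESC-. Of 10 embryonic stem cell markers Klf4, Sox2 and Zfp42 were listed, all lower in mESC- and still at levels between 2847 and 18458. Of 3 primitive endoderm markers Gata6 was listed, with a log2 fold change of 2.63 at a level of 54.1, and of 3 fibroblast markers Thy1, at -1.08. The part of such cells in the results was not tested, and in bulk RNA fewer cells of a type and less RNA per cell cannot be told apart.

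Many more lncRNA genes rose than fell. At an adjusted p under 0.05 (DESeq2), 81 of the 94 genes passed, which is 86.2% beside 84.3% of all listed genes. Of these, 56 rose in mESC- and 25 fell, while 49.8% of all listed genes passed and were higher and 34.5% passed and were lower. The higher genes made up 69.1% of the lncRNA genes that passed (95% exact binomial interval 57.9 to 78.9, counting error only) and 57.5% of the 1682 protein-coding genes that passed. The rises were also larger, with a median log2 fold change of 1.61 over the 56 risen genes and -1.0 over the 25 fallen ones, against 0.73 and -0.54 for protein-coding genes. Among the risen genes, 40 changed at least 2-fold, and among the fallen genes 13 did. At the threshold, Gm15441 lay just inside with an adjusted p of 0.047 and Gm27000 just outside with 0.0513.

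**Figure D1:**
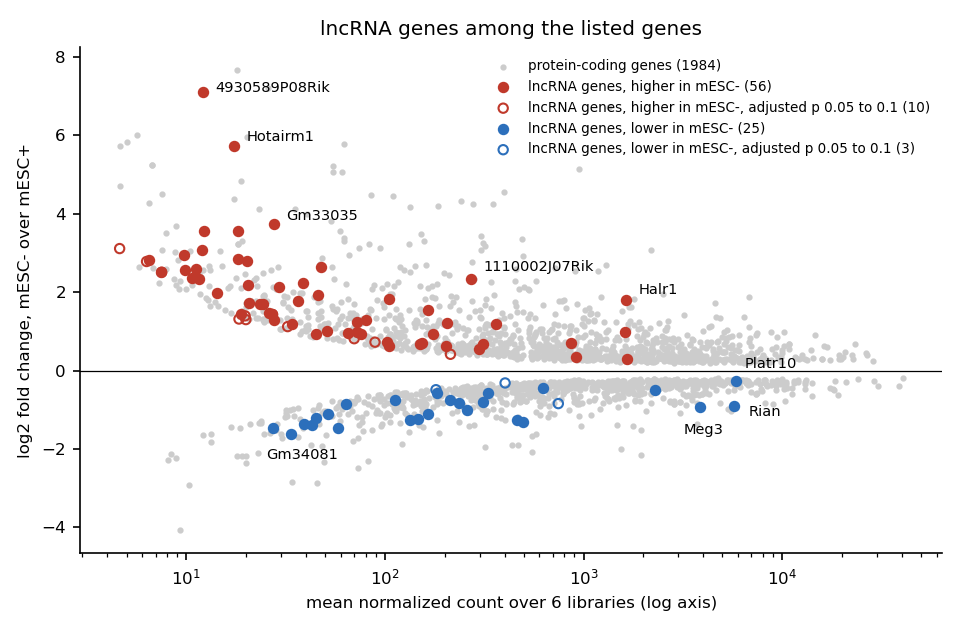
Log2 fold change of mESC- over mESC+ (y axis) against the mean normalized count over 6 libraries (x axis, log scale) for listed protein-coding genes (grey), 81 lncRNA genes at an adjusted p under 0.05 (filled) and 13 between 0.05 and 0.1 (open). The largest rises sit at low levels, and the members with highest levels changed less.

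Direction and level went together. The median level was 60.8 normalized counts over the 94 genes and 716 over the listed protein-coding genes, and per kb of exon, which allows genes to be compared, the medians were 37.7 and 143. Among lncRNA genes that passed with a level under 100, 38 rose and 8 fell, whereas at 100 or more 18 rose and 17 fell. Protein-coding genes showed the same kind of split, with 178 higher and 77 lower under 100, and 789 higher and 638 lower above. At low levels a gene is listed only if its change is large, so the medians above depend on level. The SE of the log2 fold change had a median of 0.36 in the risen and 0.19 in the fallen lncRNA genes. By type, 37 of 51 lincRNA genes and 12 of 17 antisense genes that passed were higher, and 4 of 9 processed transcripts were. Those 4 include Zswim6 and Ptpmt1, which RefSeq types as protein-coding.

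Both genes with the largest rises were close to absent in mESC+. 4930589P08Rik (ENSMUSG00000085593, chr4:151376470-151379582, plus strand) lies antisense inside Camta1, a gene for a calmodulin-binding transcription activator that was not listed. Its mean level and fold change give 0.175 normalized counts in mESC+ and 24.0 in mESC-, a log2 fold change of 7.10 (SE 1.28, DESeq2 adjusted p 3.7e-06). Hotairm1 (chr6:52156902-52162119, plus strand) lies in the HoxA cluster and is best known from RA-treated myeloid cells. It stood at 0.638 normalized counts in mESC+ and 34.1 in mESC-, a log2 fold change of 5.74 (SE 1.11, DESeq2 adjusted p 2.31e-05). With under 1 count in mESC+, the size of both changes is poorly set, as the SEs above 1 show.

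The other 8 of the 10 largest rises (level of at least 10) had log2 fold changes between 2.60 and 3.74. Gm33035 on chromosome 10 went from 3.84 to 51.2 normalized counts (log2 fold change 3.74, SE 0.54). D630033O11Rik on chromosome 9 went from 1.91 to 22.7, and its start lies 3.69 kb from that of Oaf, which also rose (1.39, SE 0.28). 1700029M20Rik on chromosome 4, the most abundant of the 10 with a level of 47.5, went from 13.1 to 82.0.

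**Figure D2:**
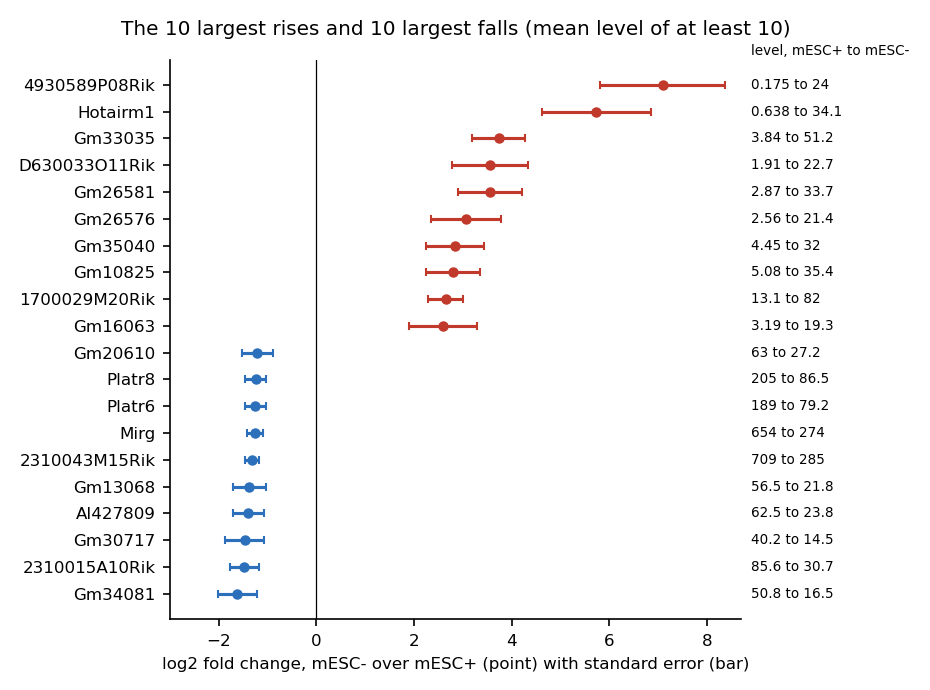
Log2 fold change of mESC- over mESC+ (points, with SE as bars) for the 10 risen and 10 fallen lncRNA genes with the largest changes among those with a level of at least 10, with the level in mESC+ and mESC- implied by the mean level and the fold change at the right. Rises reach 7.10 while the largest fall is -1.62. The genes were chosen by their adjusted p and the size of their change, so the SE bars lie away from 0 by selection.

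Falls were smaller and sat at higher levels. The 10 largest ran from -1.62 for Gm34081 to -1.21 for Gm20610, and no fallen lncRNA gene reached a 4-fold change, while 20 risen ones did. 2310043M15Rik (chr16:93792136-93794901), antisense inside Dop1b, fell from 709 to 285 normalized counts (log2 fold change -1.32, SE 0.15), the most precise of the 10. 2310015A10Rik fell from 85.6 to 30.7, and Zfp36l1, an RNA-binding protein gene 19.8 kb away, fell as well (-1.08, SE 0.12).

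Some transcripts named for pluripotency were listed. Of 43 such names 38 were in the annotation and 6 were listed, beside 0.926% of the 10150 annotated lncRNA genes. All 6 passed, 5 lower and 1 higher, beside 34.5% of all listed genes that passed and were lower. The annotated names that were not listed have no values here. Neither the share of names listed nor the share of lower genes among the 6 was tested. The Platr genes carry that name as pluripotency-associated transcripts. Platr6 fell from 189 to 79.2 normalized counts (log2 fold change -1.25, SE 0.21) and lies 37.3 kb from Sgk1, a kinase gene that fell by 0.78 on the log2 scale. Platr8 fell from 205 to 86.5 (-1.25, SE 0.21), and Lgr4, a receptor for R-spondins whose start is 4.33 kb away on the other strand, fell by 0.59. Platr7 fell by 0.45 (SE 0.10). Platr10 (chr3:75647446-75655731), the member with the highest level, changed little, from 6407 to 5368 (-0.26, SE 0.08, DESeq2 adjusted p 0.0395). Panct2 fell from 398 to 228 (-0.80, SE 0.19). Its 5′ end overlaps that of Slco4c1 on the other strand, with starts 1.045 kb apart. Slco4c1 had -0.84 but a DESeq2 adjusted p of 0.0982. Platr30 was the exception and rose, from 116 to 189 (0.70, SE 0.18).

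The listed genes of the imprinted noncoding cluster of chromosome 12 all fell. Meg3, Rian and Mirg are expressed from the maternal chromosome of the Dlk1-Dio3 domain, and Rian and Mirg carry small nucleolar RNAs and microRNAs. Of the 10 imprinted names 9 were in the annotation and these 3 were listed. All 3 passed and were lower, beside 34.5% of all listed genes that passed and were lower. Annotated imprinted names that were not listed have no values here, and the share was not tested. Rian fell from 7458 to 4013 normalized counts (log2 fold change -0.89, SE 0.11), Mirg from 654 to 274 (-1.26, SE 0.17) and Meg3 from 5084 to 2664 (-0.93, SE 0.30). Meg3, the least precise, came close to the threshold (DESeq2 adjusted p 0.0374), and the intervals of 1 SE around Rian and Meg3 overlap. Gm34081, upstream of Meg3 on the minus strand, fell from 50.8 to 16.5 (-1.62, SE 0.40). Rtl1, the retrotransposon-derived coding gene of the same domain, was also lower (-1.03, SE 0.29, adjusted p 0.00938). The 4 members span 255.9 kb, from 109493529 to 109749460. Gm27000, 1 exon of 842 bases on the X chromosome, shared 88.5% of its 32-base words with Meg3 exons and had nearly the value of Meg3 (-0.84, SE 0.28, adjusted p 0.0513), and how the counting divided reads between both is not given in the sources used here.

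Hotairm1 and Halr1 were the Hox cluster transcripts in the table. Of 12 such names 10 were in the annotation and these 2 were listed, and both passed as higher, beside 49.8% of all listed genes that passed and were higher. Halr1, a transcript beyond the 3′ end of the HoxA cluster, was abundant in mESC+ already. It went from 732 to 2541 normalized counts (log2 fold change 1.80, SE 0.11). Its DESeq2 adjusted p was 1.92e-14, the smallest value in the table, which 247 genes and 5 of the members share. Of 6 X-inactivation names 5 were in the annotation, of 31 names of small RNA hosts outside the imprinted cluster 23 were, and of 9 nuclear or housekeeping names 8 were, and none was listed. For the annotated ones this says only that they had no row under an adjusted p of 0.1, and names not in the annotation could not be members.

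Other members also lay side by side. With at most 100 kb between neighbours, 18 members formed 7 groups, each with 1 direction, 6 higher and 1 lower. Beside this, 66 of the 94 members and 1279 of the 2189 listed genes were higher. Members of a group are not always separate values. Gm20342 lies within Ino80dos on the same strand, and Platr30 and Gm17575 share most of their sequence. The agreement within groups was not tested. The largest besides the imprinted cluster was on chromosome 10 (chr10:66837597-66923599), where 1110002J07Rik, Gm26576, Gm47900 and Gm47903 all rose. 1110002J07Rik went from 90.4 to 454 normalized counts (log2 fold change 2.33, SE 0.15), and its start lies next to that of Gm26576 on the other strand, which went from 2.56 to 21.4 (3.06, SE 0.72). Jmjd1c, a gene for a histone demethylase family member 176 kb away, had 0.31 and missed the threshold (adjusted p 0.0515). Gm16063 and Tbx3os2, on either side of the Tbx3 start, rose by 2.60 (SE 0.70) and 1.73 (SE 0.46) on the log2 scale, and Tbx3, a T-box transcription factor of stem cells and development, rose by 0.82. Gm12867 and Gm12868, antisense over Slc2a1, were the 1 group without a member past the threshold.

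Where a coding gene nearby had passed, members mostly went with it. For 42 lncRNA genes that passed, the closest protein-coding gene that passed had its start within 100 kb, and 40 of these 42 pairs (95.2%, exact binomial 95% interval 83.8 to 99.4) changed in the same direction. All 28 risen genes with such a neighbour had a risen one, and 12 of 14 fallen genes had a fallen one. Within 20 kb all 25 pairs agreed in direction. For protein-coding genes and their closest other listed protein-coding gene the share was 87.4% (465 of 532) within 100 kb. Within 20 kb it was 95.3% (162 of 170), and the exact intervals of both kinds of pair overlap. Coding pairs lay farther apart, so the shares are not at like distances. Their median distance was 36.9 kb against 11.1 kb for lncRNA pairs within 100 kb, and 8.52 kb against 2.55 kb within 20 kb. Several members share 1 neighbour, such as Rtl1 for 3 of them, so the pairs are not independent. For 46 of the 94 members the closest annotated coding gene was not listed, so a pair is not always of nearest neighbours.

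**Figure D3:**
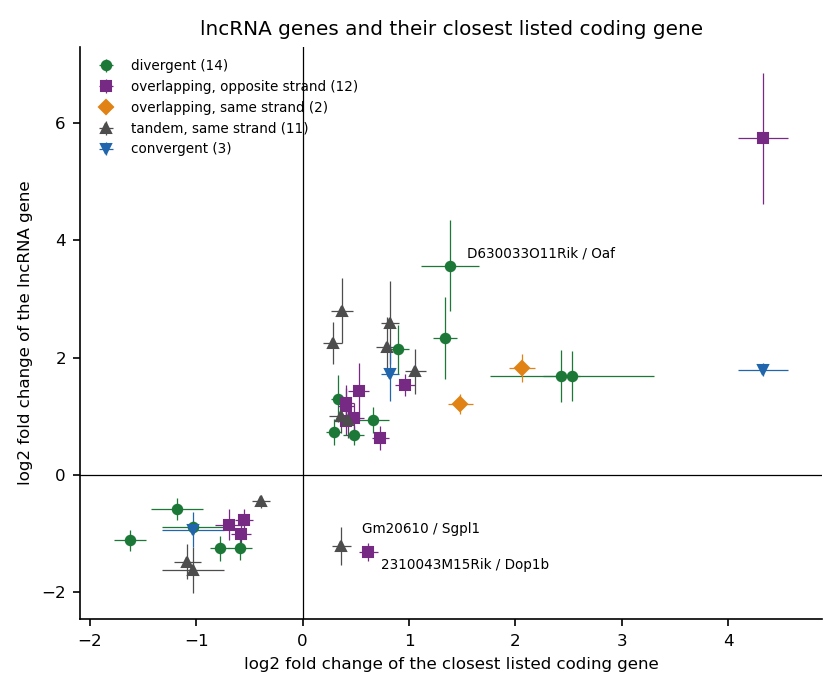
Log2 fold change of each lncRNA gene (y axis) against that of its closest listed protein-coding gene (x axis) for the 42 pairs within 100 kb, with SE bars and marks for the arrangement of both genes. The pairs fill the upper right and lower left corners except 2310043M15Rik with Dop1b and Gm20610 with Sgpl1.

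By arrangement, 14 pairs were divergent, 12 overlapped on opposite strands, 11 were in tandem, 3 were convergent and 2 overlapped on the same strand. All 14 divergent pairs agreed in direction. Among them C030037D09Rik starts 0.132 kb from Msi2, a Musashi RNA-binding protein gene, and rose by 0.73 (SE 0.22) beside 0.29 (SE 0.07). Tnfsf13os starts 0.054 kb from Senp3, a SUMO protease gene, and rose by 1.30 (SE 0.40) beside 0.33 (SE 0.07). In both the change of the lncRNA gene was the larger by its point estimate, though the SEs are wide. 3300002P13Rik, 0.75 kb from Cacng6, a calcium channel subunit gene, had the reverse order, with 1.68 (SE 0.45) beside 2.43 (SE 0.17).

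Overlap limits these pairs. Of the 94 genes, 32 overlap a protein-coding gene, 6 of them on the same strand. The library kit keeps strand, but the strand setting of the counting is not given in the sources used here, so reads of a member and of an overlapping gene on the other strand cannot be told apart. Of the 28 pairs whose bodies do not overlap, 27 agreed in direction. Both pairs with opposite directions lay far apart by their starts, and each member had a closer coding start that was not listed (Morc3 and Pcbd1). Dop1b rose by 0.62 (SE 0.09) while 2310043M15Rik on its other strand fell by 1.32, with starts 82.997 kb apart. Sgpl1, which encodes sphingosine-1-phosphate lyase, rose by 0.36 (SE 0.09) while Gm20610 fell by 1.21 (SE 0.32), with starts 95.8 kb apart. The same-strand pairs were the sense_intronic genes Gm11611 in Srcin1 (1.82 beside 2.06) and Gm15513 in Zfyve28 (1.20 beside 1.48), for which unspliced reads of the host cannot be told apart from the member.

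Dynamic enhancer regions lay near few members, as they did for coding genes that passed. The deposited list of 327 regions, each a GRCm38 interval with an enhancer probability between 0 and 1 in either state, has 186 in cluster 1, active in mESC+, and 141 in cluster 2, active in mESC-. Of the members, 6 (6.38%) had a region overlapping the gene body or within 20 kb, with 8 regions in all. All 6 passed the test, which makes 7.41% of the 81 lncRNA genes that passed. Of the protein-coding genes that passed, 121 of 1682 (7.19%) had such a region. Each of the 6 members matched the cluster in direction. Gm12688 and Gm7932 fell and had cluster 1 regions, and Gm33035, Pmepa1os, 4930589P08Rik and Gm16063 rose and had cluster 2 regions. The opposite pairing did not occur. Among protein-coding genes that passed, 36 of 715 lower genes were near cluster 1 and 81 of 967 higher genes near cluster 2, with 2 and 2 in the opposite pairings, so shares of 8% (2 of 25) and 7.14% (4 of 56) among lncRNA genes stand beside 5.03% and 8.38%.

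**Figure D4:**
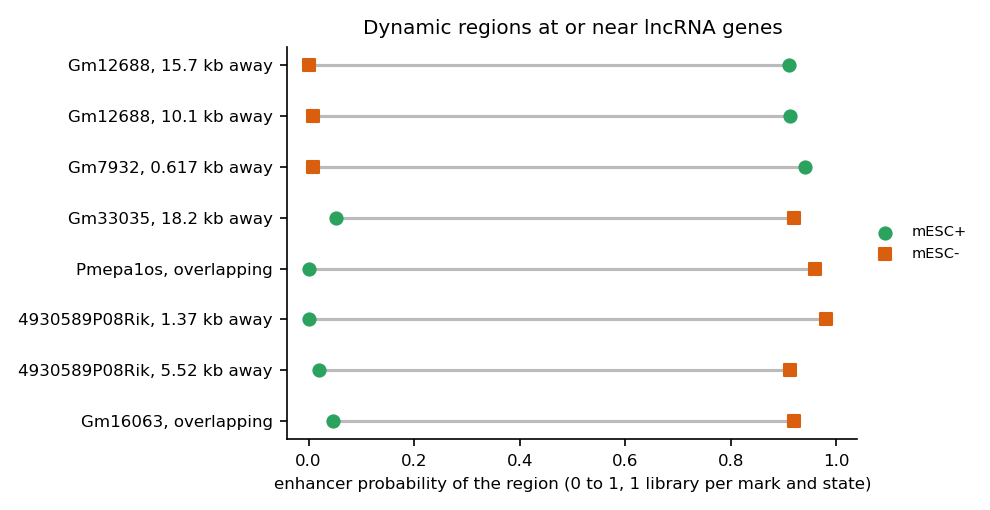
Enhancer probability (x axis, 0 to 1) in mESC+ (circles) and mESC- (squares) of the 8 dynamic regions that overlap a lncRNA gene or lie within 20 kb of it, 1 row per gene and region. The 3 regions of Gm12688 and Gm7932 drop from between 0.91 and 0.941 to at most 0.0094, and the 5 others rise from at most 0.0516 to between 0.912 and 0.98.

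Gm12688 (chr4:99653607-99654983, minus strand) starts 1.32 kb from Foxd3, a transcription factor of the pluripotent state, and points away from it. It fell from 225 to 104 normalized counts (log2 fold change -1.11, SE 0.18), and Foxd3 fell by 1.62 (SE 0.15). Its regions lie 10.1 kb (chr4:99640301-99643500) and 15.7 kb (chr4:99634901-99637900) away, and their enhancer probabilities went from 0.911 to 0.0089 and from 0.91 to 0. Both held ATAC-seq peaks in both states. Apart from ChIP-seq, the paper tested the region 10.1 kb away in an enhancer reporter assay (STARR-qPCR). It describes reporter activity that depended on LIF. Gm7932 on chromosome 6, which RefSeq types as protein-coding, fell from 70.7 to 32.8 (-1.11, SE 0.30), and its region lies 0.617 kb away with probabilities of 0.941 and 0.0094.

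4930589P08Rik, the gene with the largest rise, sits between a pair of cluster 2 regions. One lies 1.37 kb from its start (chr4:151371401-151375100), where the enhancer probability rose from 0 to 0.98, and held an ATAC-seq peak in mESC- only (fold enrichment 8.18). The other lies 5.52 kb beyond its end (chr4:151385101-151388400; 0.0194 and 0.912) and held peaks in both states. No coding gene that passed lay within 100 kb. Gm16063 (chr5:119625942-119634464) overlaps a region of 1300 bases with probabilities of 0.0462 and 0.92, whose ATAC-seq peak was also called in mESC- only (fold enrichment 6.98). Pmepa1os overlaps a region of 13200 bases (0 and 0.96) and starts 0.165 kb from Pmepa1, a gene for an inhibitor of TGF-beta signalling. Pmepa1os went from 3.81 to 19.2 (log2 fold change 2.34, SE 0.70) and Pmepa1 rose by 1.33 (SE 0.11). Gm33035 had its region 18.2 kb away (0.0516 and 0.921). Each probability rests on 1 library per mark and state, so none of them has a ChIP-seq replicate.

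The sequences below are the matches to RA response elements in these regions that carried no mismatch. A match with 1 mismatch from the second region of 4930589P08Rik is added. Other matches with 1 mismatch, in the Pmepa1os region and in the cluster 1 region of Gm7932, are not shown. The sequences shown all come from cluster 2 regions and were read from the RefSeq genome GRCm38.p6. Each is given 5′ to 3′ on the strand named, with 40 bases on either side and the half-sites in capitals. The search took pairs of 4 half-sites in direct repeat (AGGTCA as the first, GGGTCA as the second, AGTTCA as the third and GGTTCA as the fourth, in any pairing), 2 or 5 bases apart, on both strands, with at most 1 mismatch over both.
Pmepa1os region, 2 bases apart, no mismatch, chr2:173278941-173279034, minus strand: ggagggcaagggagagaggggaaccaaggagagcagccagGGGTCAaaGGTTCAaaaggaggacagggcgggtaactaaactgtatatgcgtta
Pmepa1os region, 5 bases apart, no mismatch, chr2:173279567-173279663, minus strand: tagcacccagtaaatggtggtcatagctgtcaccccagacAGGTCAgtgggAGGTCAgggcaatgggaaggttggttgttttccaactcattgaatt
Gm16063 region, 2 bases apart, no mismatch, chr5:119628885-119628978, plus strand: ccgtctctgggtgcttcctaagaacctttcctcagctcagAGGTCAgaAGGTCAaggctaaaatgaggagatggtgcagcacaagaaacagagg
4930589P08Rik region, 5 bases apart, 1 mismatch, chr4:151387333-151387429, plus strand: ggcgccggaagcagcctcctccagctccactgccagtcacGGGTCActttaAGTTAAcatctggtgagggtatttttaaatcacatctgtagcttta

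The Gm16063 repeat lay in the mESC- only ATAC-seq peak, the 4930589P08Rik repeat in a peak of both states, and the first Pmepa1os repeat in a peak of both states whose fold enrichment was 3.16 in mESC+ and 5.05 in mESC-. The second Pmepa1os repeat lay in no peak. Over whole regions, 4 of the 8 held a match, beside 143 of all 327 (43.7%), and 2 held one with no mismatch, beside 46 (14.1%). Among cluster 2 regions it was 3 of 5, beside 86 of 141 (61.0%). These shares were close to the background. In the central 300 bases 1 of 8 held a match, beside 31 of 327 (9.48%). It was the cluster 1 region of Gm7932, a gene that fell. Of the cluster 2 regions 0 of 5 held a match there, beside 18 of 141 (12.8%). Region length differs, so whole-region shares depend on it. A match is a description of letters and not a bound site.

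Gene starts held few repeats. In the 300 bases from 250 before to 50 after the annotated start, 3 of the 56 risen genes (5.36%) and 3 of the 25 fallen genes (12%) had a match with at most 1 mismatch, beside 3.77% of the 32088 starts of annotated lncRNA and coding genes. Among the 10150 annotated lncRNA starts alone it was 4.14% (420). The exact intervals, 1.12 to 14.9 and 2.55 to 31.2, include both shares. The 3 risen genes include the near-identical pair Platr30 and Gm17575. The starts of Platr30 and Gm17575 held the same match 44 bases before the start, on opposite strands of chromosome 3, and are shown because the pair shares most of its sequence.
Platr30 start, 5 bases apart, 1 mismatch, chr3:96345195-96345291, plus strand: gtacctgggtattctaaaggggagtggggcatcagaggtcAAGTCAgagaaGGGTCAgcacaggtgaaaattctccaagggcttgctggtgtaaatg
Gm17575 start, 5 bases apart, 1 mismatch, chr3:96388860-96388956, minus strand: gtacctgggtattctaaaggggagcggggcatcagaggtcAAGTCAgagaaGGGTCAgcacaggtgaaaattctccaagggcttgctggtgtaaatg

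Both 300-base start windows agreed at 292 of 300 bases (97.3%), and 93.2% of the 32-base words in Platr30 exons recurred in those of Gm17575. Their values were close, with levels of 153 and 151 and log2 fold changes of 0.70 (SE 0.18) and 0.67 (SE 0.18). Gm26581 and Gm10825 on chromosome 10, both among the 10 largest rises, shared 90.6% of their words and had 3.55 (SE 0.66) and 2.80 (SE 0.56). How the counting treated reads that map to more than 1 place is not given in the sources used here, so each such pair is better read as 1 value. For 10 of the 94 members over 50% of the words recurred in the genome, the median was 1.58%, and 75 members were under 10%. Without members over 50%, 73 passed, 50 higher and 23 lower.

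ATAC-seq peaks marked the starts of fewer lncRNA genes than coding genes. A peak within 500 bp of the annotated start was called for 32 of the 56 risen lncRNA genes in mESC+ (57.1%, exact interval 43.2 to 70.3) and 34 in mESC- (60.7%, 46.8 to 73.5). Of the 25 fallen genes, 12 had one in mESC+ (48.0%, 27.8 to 68.7) and 10 in mESC- (40%, 21.1 to 61.3). For protein-coding genes that passed the shares lay between 83.4% and 86.7%. Median levels also differed (60.8 for listed lncRNA genes, 716 for coding genes), and level was not separated from gene type. With any annotated transcript start, the risen lncRNA shares were 67.9% in mESC+ and 69.6% in mESC-, and the fallen ones 64% and 52%. Coding shares are not reported for that setting.

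**Figure D5:**
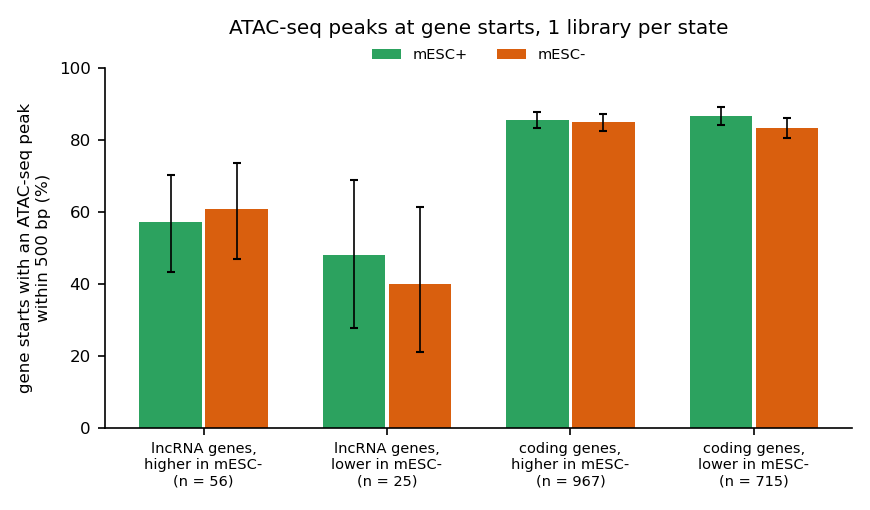
Share of gene starts (y axis, percent) with an ATAC-seq peak within 500 bp in mESC+ (green) and mESC- (orange), for lncRNA and protein-coding genes that were higher or lower in mESC-, with exact binomial 95% intervals as bars. The lncRNA shares lie between 40% and 60.7% and the coding shares between 83.4% and 86.7%.

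The peaks followed the direction of change at few starts. Of the risen genes, 32 had peaks in both states, 22 in neither and 2 in mESC- only, which were Gm11611 and Gm10602, and none in mESC+ only. Of the fallen genes, 9 had peaks in both, 12 in neither, 3 in mESC+ only (Platr7, 1700097N02Rik and 4930444M15Rik) and 1, Meg3, in mESC- only. The fold enrichments of these single-state peaks were low, between 3.28 and 4.88. Both genes with the largest rises, 4930589P08Rik and Hotairm1, had no peak at the annotated start in either state. The mESC+ list held 163484 peaks and the mESC- list 141465. At the 32 risen starts with peaks in both states, fold enrichment ranked higher within the mESC+ list for 20 and within the mESC- list for 12. At the 9 such fallen starts it was 5 and 4, and at risen coding starts 508 and 297. With 1 library per state a peak called in 1 state is a call and not a tested difference.

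By level per kb of exon, the highest members were Gm46332 (3725 normalized counts per kb), Platr10 (3374), Gm26564 (2286), Halr1 (1668) and Gm27000 (886). Of the 32-base exonic words of Gm46332 50.5% recurred in the genome, and of those of Gm27000 88.7%, so with the treatment of such reads not given, the levels and places of both in this order may include reads of other loci. Gm46332 fell from 2671 to 1889 normalized counts (log2 fold change -0.50, SE 0.11), and Gm26564 rose from 654 to 1073 (0.71, SE 0.11). By level itself Platr10, Rian, Meg3, Gm46332 and Gm37494 led, of which Gm37494 rose slightly, from 1490 to 1838 (0.30, SE 0.09). Members with no coding sequence in the annotation may still carry the symbol of a coding gene. Zswim6 (0.98, SE 0.09) and Ptpmt1 (1.19, SE 0.13) are typed processed_transcript in GENCODE M21 and protein-coding in RefSeq. RefSeq typed 61 of the 94 members as lncRNA and 3 as protein-coding (the third is Gm7932), and 30 were not matched, so the noncoding type of those 3 differs between the annotations.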

How the data were processed

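E14 cells in mESC+ and mESC- were profiled by RNA-seq (3 libraries per state), ATAC-seq (1 per state) and ChIP-seq (1 per mark and state). The authors made the deposited RNA-seq table with DESeq2 from polyadenylated, strand-specific libraries aligned to GRCm38. The deposited table holds for 2189 genes the signal that the authors averaged over libraries (the mean normalized count), their log2 fold change and its standard error, a score (the Wald statistic), a p-value and an adjusted p. The paper's methods name BWA-MEM for alignment and the submitters' processing notes also name STAR 2.5.1b. The program and strand setting of the counting are not given in the sources used here. The deposited adjusted p has a floor of 1.92e-14 while p-values go lower, and adjusted p times rank over p is not constant (45301 at rank 1000, 29284 at the last row), so it is not a plain Benjamini-Hochberg value of these p-values, and its method is not given in the sources used here. The authors computed the enhancer probability, a fraction from 0 to 1, with CRUP for each dynamic region, with the p-value of a permutation test. The authors called ATAC-seq peaks with MACS2 per library, and the deposited peak lists give fold enrichment (a ratio), −log10 p and −log10 q values and a peak score.

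The columns of the authors' comparison were the only RNA-seq values used, and no model was fitted. Sequencing depth per library is unknown here. Groups followed the labels. Members were typed with GENCODE M21 (GRCm38, the build of the files). The members and gene lists were chosen with earlier results of these data known. Named were the 10 largest rises and falls at a level of at least 10, the 5 highest levels in total and per kb, members within 20 kb of a region and listed members of the lists. Levels per state were computed from the mean level and the fold change, taking 3 libraries in each state. Exact binomial 95% intervals cover counting error only. Sequences came from GRCm38.p6, and words of 32 bases were counted over all chromosomes on both strands. Python 3.11.15, pandas 2.3.3, SciPy 1.17.1 and pysam 0.24.0 were used, and the interval, neighbour and motif functions were tested on simulated data. Alternatives tried were stricter thresholds, level and type filters, other distances, stronger peaks, other starts and exact motifs. ChIP-seq libraries of marks outside the enhancer regions were not used here. The values of some single coding neighbours are not reported here.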

Additional observations from a re-analysis of the deposited data

How the results depend on the processing

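Of 55 alternative values, 43 stayed within 1.5 times the count, within the interval or within the median SE, and 12 moved. With lincRNA genes only, 37 were higher and 14 lower, since fewer genes were counted. Where a 2-fold change was required, 13 were lower. Within 20 kb, 100% of neighbour pairs had 1 direction. With regions within 10 kb, 1 fallen gene was near cluster 1. With ATAC-seq peaks of a −log10 q of at least 10, 41.1% of risen starts had a peak in mESC+ and 33.9% in mESC-, so the order of the states reversed for risen starts, and of fallen starts 32% had one in each state, so the higher share in mESC+ was lost. The cause was not tested. With no mismatch in the repeat, the share was 0% in the central 300 bases of the 8 regions, 1.83% of all regions, and 0% of risen and 0% of fallen starts. Over whole regions it was 43.7% of all regions. The alternative without members whose exonic words recur in the genome was chosen after seeing the data.

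No paired analysis was possible because values per library were not used here, and for the same reason none was left out in turn. The report rests on 1 deposited comparison of genes selected by their adjusted p, with 1 library per state for ATAC-seq and each ChIP-seq mark.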
